A study of Mus musculus with 12 samples.

Results

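Neurons pass signals by filling small membrane vesicles with transmitter and fusing them with the plasma membrane when calcium enters. The genes for this machinery were followed in sorted neurons of the spiral ganglion, which connect cochlear hair cells with the auditory brainstem, with and without floxed alleles of the transcription factor gene Isl1. The list held 47 gene symbols: synaptotagmins and Doc2b, synaptotagmin-like (Sytl) proteins, SNAREs and complexins, vesicle proteins, active zone scaffolds, Rab GTPases and vesicular transporters. Of these, 44 matched 1 of the 25674 rows of the count table through their Ensembl identifier. Doc2b, Sytl5 and Slc32a1 matched none and were not analysed here. A further 5, Syt9, Sytl1, Rab27a, Slc17a8 and Slc18a3, did not pass the filter on low counts, so 39 members were tested.

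By the labels, each library came from 100 tdTomato-positive cells, sorted from the spiral ganglia of both inner ears of 1 mouse embryo of either sex at E14.5. The embryos came from 4 litters on a mixed C57BL/6 and sv129 background. The 6 control embryos were Neurod1Cre;Rosa26tdTOM and carried no floxed Isl1 allele by this label. The 6 others were Neurod1Cre;Isl1loxP/loxP;Rosa26tdTOM, and their libraries are called Isl1CKO. Cre and the reporter were therefore present in both groups. The Cre is a transgene built on a Neurod1 genomic clone, so that recombination and red fluorescence follow cells that have expressed Neurod1, and not spiral ganglion neurons as such. One label tag counts the libraries as technical replicates, while the series' design text speaks of biological ones. They were taken as separate embryos, and p-values measure the spread between these libraries. The fit held no term for litter, so likeness between embryos of the same litter was not accounted for.

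In a mature nerve ending, the SNARE proteins syntaxin, SNAP-25 and VAMP2 pull vesicle and plasma membrane together, complexins clamp and assist them, and synaptotagmins supply the calcium sensor. Rab3 and Rab27 proteins with their effectors bring vesicles to the membrane, RIM, Munc13, bassoon and piccolo build the release site, and vesicular transporters set which transmitter is loaded. Auditory neurons are glutamatergic. At the embryonic stage sampled their axons are still growing towards their targets.

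Library totals ran from 11895603 to 13857480 counts, and 3 counts, taken as the detection floor, amounted to 0.219 to 0.250 counts per 1000000 (CPM). Levels are CPM after scaling of library sizes. The floor covers counting error only, while the intervals of log2 fold changes come from the fit and include the spread between libraries. Isl1 itself lay between 1171 and 1777 CPM in controls and between 1050 and 1589 CPM in Isl1CKO, and the groups overlapped (edgeR adjusted p = 0.460). Its summed count does not tell a recombined allele from an intact one, so this level does not check the labels. The mitochondrial share of counts was 1.05% to 1.65% in controls and 0.845% to 1.02% in Isl1CKO, without overlap, and its part in the results was not tested. The libraries labelled Isl1CKO 2, 3 and 5 held both Xist and Y-linked transcripts, which the other 9 did not, and counts below are also given without them. RNA of 1 embryo would usually hold only 1 of these kinds, so these libraries do not match the label of 1 embryo each. The cause was not tested. The 8 pan-neuronal markers checked were abundant in all 12 libraries. Their summed level was 13920 to 15890 CPM in controls and 11770 to 13650 CPM in Isl1CKO, without overlap, and Nefl, Nefm and Elavl4 were lower while Stmn2 was higher. Among 6 markers of inner ear neurons, Gata3 was lower, with a log2 fold change of -2.71, and Neurod1 was higher, with one of 0.88.

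Other cell types were looked for with fixed marker lists. Macrophage markers, 10 genes, summed to 1.85 to 372 CPM in controls and 1.24 to 771 CPM in Isl1CKO. Those of Schwann and satellite glia, 8 genes, summed to 31.9 to 187 CPM and 34.9 to 259 CPM. Both pairs of ranges overlap, but the medians of the sums were higher in Isl1CKO. They were 7.76 and 131 CPM for macrophage and 79.7 and 135 CPM for glial markers. Log2 fold changes were positive for all 10 macrophage genes and for 5 of the 6 glial genes tested, with a wide spread between libraries. None of the 10 and of the 6 glial genes tested passed the threshold in edgeR or DESeq2, and 0 of each had an unadjusted p under 0.05 in both tools. With limma-voom 0 were called and 1 glial gene had such a p. Of the 6 cycling cell markers, which summed to 13.96 to 139 CPM and 6.85 to 301 CPM, 0 were called by any of these tools and 0 had an unadjusted p under 0.05. The medians of their sums were 28.5 and 130 CPM, and all 6 log2 fold changes were positive. The hair cell genes Pou4f3, Gfi1 and Lhx3 lay at or under 2.67 CPM in every library. Myo7a was detected at 0.831 to 13.1 CPM in controls and 1.68 to 15.2 CPM in Isl1CKO. Otof lay at 0.296 to 7.26 CPM and 0.365 to 3.69 CPM. The hair cell list as a whole summed to 253 to 538 CPM in controls and 293 to 580 CPM in Isl1CKO, mostly from Myo6. Of the 4 tested, Ccer2 was called lower. Mesenchyme markers, 8 genes, summed to 38.2 to 84.3 CPM and 71.3 to 122 CPM, with Tbx18 and Col3a1 called higher and Col1a1 and Dcn at or under 2.33 CPM in every library. Pou3f4, the most abundant of them in controls, had medians of 51.7 and 31.2 CPM (log2 fold change -0.95, edgeR adjusted p = 0.143). Twist1, not tested, lay at 0.250 to 2.37 CPM in controls and did not exceed 1 count in any Isl1CKO library. Col1a2 went the other way without passing the threshold (log2 fold change 1.83, edgeR adjusted p = 0.0602). Prrx1, not tested, was also higher, with medians of 0.31 CPM in controls and 4.73 CPM in Isl1CKO. The groups overlapped for Col1a2 and Prrx1. Tbx18, with a control median of 0.70 CPM, passed the filter on low counts through the Isl1CKO libraries. Its call is thus part of how it entered the test. Of 6 erythroid markers 1, Alas2, had a row, at 1.01 to 5.87 CPM over both groups. In sorted pools, fewer cells of a type and less RNA per cell cannot be told apart, and the part of other cell types in the results below was not tested beyond the fit with macrophage and glial markers as covariates.

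Of the 39 tested members 8 passed an adjusted p of 0.05, 5 lower and 3 higher in Isl1CKO (edgeR quasi-likelihood test, Benjamini-Hochberg adjustment over all 14813 genes tested). The lower ones were Syt13, Syt2, Rab3b, Sv2c and Cplx1, and the higher ones were Sytl4, Syt4 and Slc17a6. This is 20.5% of the tested members, where 10.2% of all tested genes were called, 5.19% lower and 5.01% higher. The members were chosen with earlier results of these data known, so these shares are a description and support no excess of calls. The groups did not overlap for 7 of the 39 tested members, all of them called, where 6.78% of all tested genes had groups that did not overlap. Sv2c was the called member with overlap. The median log2 fold change of the members was 0.02, and that of all tested genes 0.004. The median size of a change, without its sign, was 0.43 for the members and 0.27 for all tested genes. Of the 11 tested members with a mean level of at least 100 CPM 3 were called, and of the other 28 it was 5. Sytl4 passed the filter on low counts through the Isl1CKO libraries alone, so its call is part of how it entered the test. It is counted among the 8 called members and the 7 without overlap. Without the 3 libraries that held Xist and Y-linked transcripts, 6 of the 8 calls remained and those of Cplx1 and Sv2c were lost. That fit called 767 genes over the whole table, where the fit to all 12 libraries called 1511. Its Isl1CKO group was smaller by these 3 libraries, and the part of the smaller group in lost calls was not tested.

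**Figure D1:**
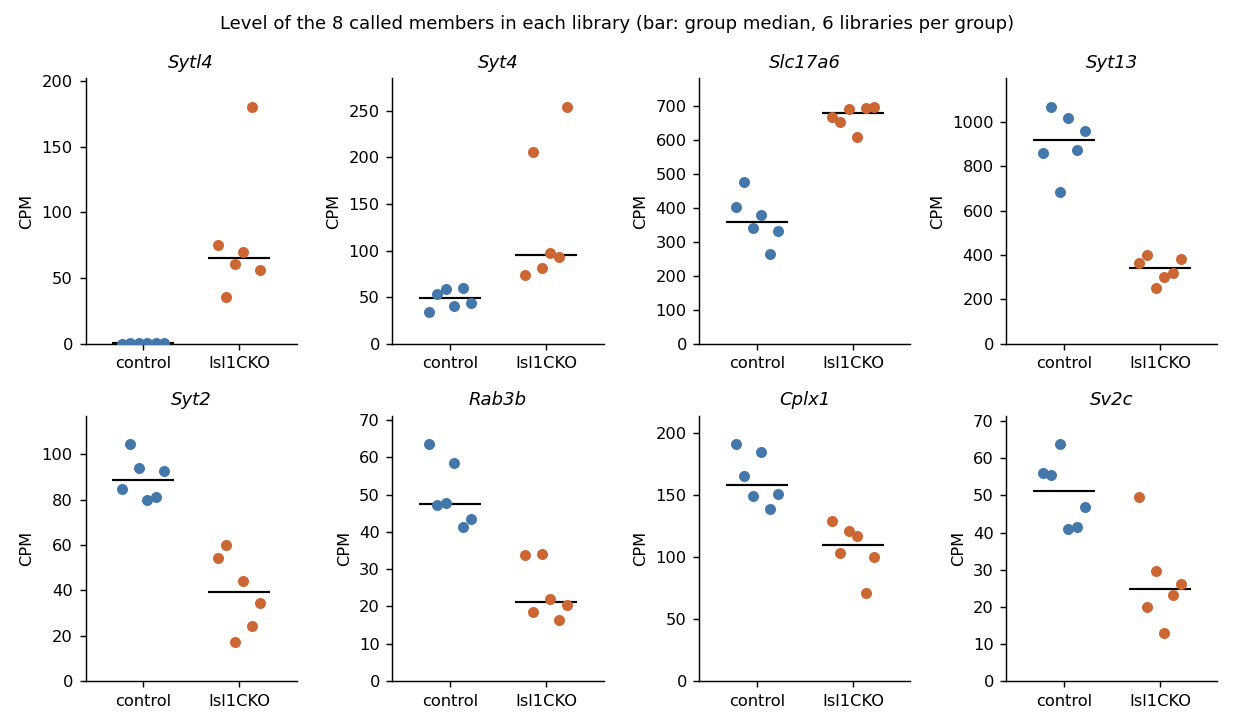
Level in CPM (vertical axis, from 0) of the 8 called members in each of the 6 control (blue) and 6 Isl1CKO (orange) libraries, with a bar at each group's median. The groups are apart in 7 panels, and in the panel of Sv2c the library Isl1CKO 1 lies at 49.7 CPM among the controls.

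**Figure D2:**
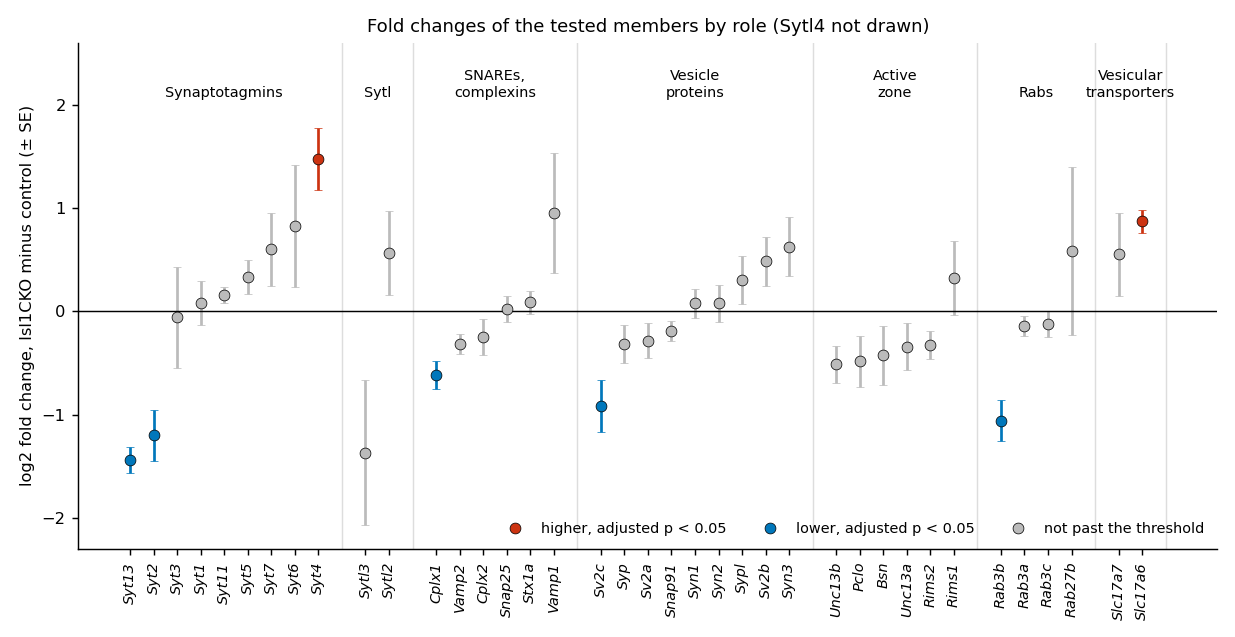
Log2 fold change of Isl1CKO over control with its standard error (vertical axis) for 38 tested members grouped by role, coloured where the edgeR adjusted p is under 0.05. Sytl4 is not drawn because its controls were at or under 3 counts. The 6 active zone genes lie between -0.51 and 0.32.

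Levels of different genes were compared per length, as CPM per kilobase of annotated exon. On this scale the 5 highest members in controls were Syt13 at 242 ± 36.6, Syt11 at 169 ± 20.7, Rab3a at 145 ± 19.0, Snap25 at 92.2 ± 9.62 and Vamp2 at 77.03 ± 6.33 (SD, n = 6). In Isl1CKO the highest were Syt11 at 188 ± 9.84, Rab3a at 132 ± 16.1, Slc17a6 at 124 ± 6.42, Snap25 at 93.6 ± 21.1 and Syt13 at 89.2 ± 15.1 CPM per kilobase (SD, n = 6). Syt13 thus moved from the first to the fifth place and Slc17a6 from the seventh to the third. In Isl1CKO, neighbours in this order such as Rab3a and Slc17a6, or Snap25 and Syt13, lay within 1 SD of each other. Lengths are unions of all annotated exons, which understate the level of genes whose long isoforms are not used.

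**Figure D3:**
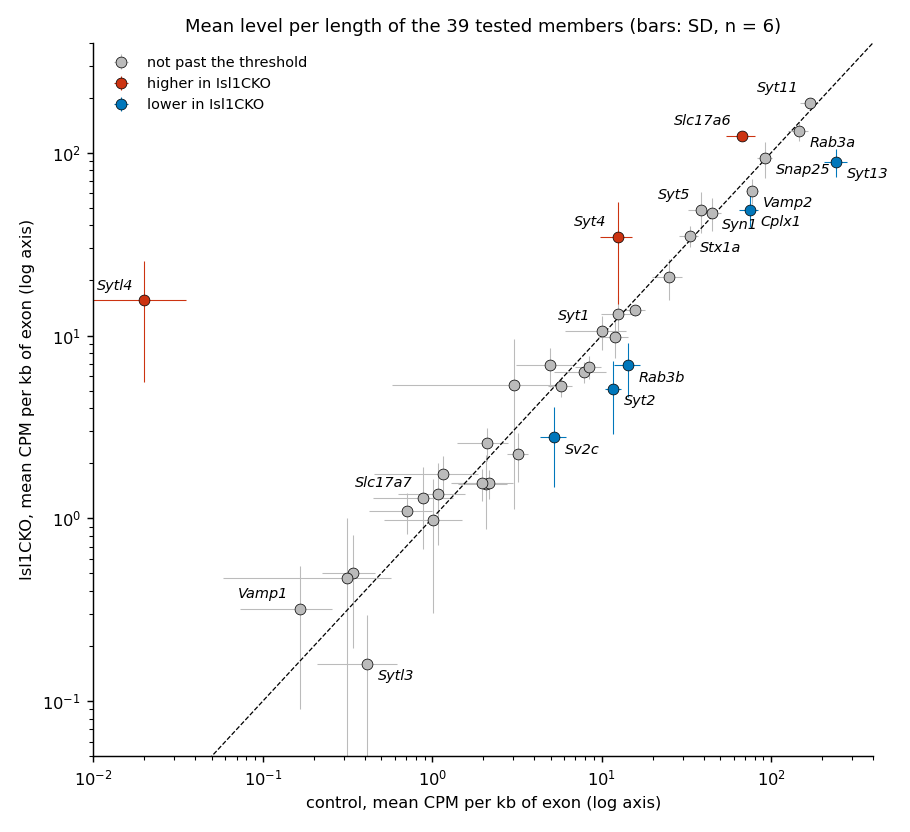
Mean level per length of the 39 tested members in controls (horizontal) and Isl1CKO (vertical), in CPM per kilobase of exon on log axes, with SD over 6 libraries and a dashed line of equality. Most members lie along the line; Sytl4 stands far above it at a control level of 0.020, under the detection floor, and Syt13, Rab3b, Syt2, Sv2c and Cplx1 lie below it.

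Synaptotagmins are vesicle or membrane proteins with paired C2 domains, of which some, such as Syt1 and Syt2, bind calcium and trigger fast release, and others, such as Syt4, Syt11 and Syt13, do not act as calcium sensors of that kind. Of the 9 tested, Syt13 and Syt2 fell, Syt4 rose and 6 did not pass the test. This is 33.3% of a small list, where 10.2% of all tested genes were called. Syt13 (ENSMUSG00000027220, chromosome 2, 92915098 to 92956058, plus strand, GRCm38) lay at 682, 917 and 1068 CPM (lowest, median and highest) in controls and at 249, 340 and 398 CPM in Isl1CKO. All 6 Isl1CKO libraries were below all controls. The level was 2.71-fold lower (log2 fold change -1.44, standard error, SE, 0.13, edgeR adjusted p = 2.73e-06). Syt13 was the member with the smallest p among those that fell, and it kept its call under all 21 alternatives, with log2 fold changes between -1.52 and -1.37.

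Syt2 (ENSMUSG00000026452, chromosome 1, 134646677 to 134762593, plus strand), a fast calcium sensor, went from 80.1, 88.8 and 105 CPM in controls to 17.0, 39.2 and 59.8 CPM in Isl1CKO. Again no library of one group reached the other. The log2 fold change was -1.20 (SE 0.25, edgeR adjusted p = 0.00479). Its close relative Syt1, the main fast sensor of forebrain neurons, lay at 54.2, 76.1 and 148 CPM in controls and 65.4, 87.4 and 121 CPM in Isl1CKO. The log2 fold change was 0.08 (SE 0.21, edgeR adjusted p = 0.858), with an approximate 95% interval from -0.39 to 0.55. The groups overlapped for Syt1, and control 3 was the highest of the 12 libraries. Whether Syt1 and Syt2 changed differently was not tested as such.

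Syt4 (ENSMUSG00000024261, chromosome 18, 31437808 to 31447406, minus strand), a synaptotagmin found on dense-core and other vesicles, rose. It lay at 34.3, 48.9 and 59.3 CPM in controls and 73.9, 95.1 and 254 CPM in Isl1CKO, with 2 libraries, Isl1CKO 2 and 6, at 206 and 254 CPM and the other 4 at or under 97.5 CPM. Its log2 fold change was 1.48 (SE 0.30, edgeR adjusted p = 0.00439), and all Isl1CKO libraries lay above all controls. Its exons overlap Gm26658 on the opposite strand over 566 bases, and since the counting is not stated to use strand, reads there cannot be told apart.

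Syt11, the most abundant synaptotagmin in Isl1CKO, had a median of 879 CPM in controls, with a range of 710 to 1014, and of 977 CPM in Isl1CKO, with a range of 902 to 1050. It was not past the threshold (log2 fold change 0.16, SE 0.08, edgeR adjusted p = 0.249, interval -0.02 to 0.34). Syt5, Syt6 and Syt7 had log2 fold changes of 0.33, 0.82 and 0.60, and Syt3 one of -0.06, none past the threshold. Syt6 ran from 5.42 to 36.7 CPM in controls and from 3.81 to 76.4 CPM in Isl1CKO. Syt9 stayed under 3.51 CPM in every library and was not tested.

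The makeup of the family followed from these levels. In controls Syt13 took 49.3% ± 2.76 and Syt11 34.5% ± 1.59 of the summed level per length of the 10 synaptotagmins with a row. In Isl1CKO the shares were 23.1% ± 2.66 and 49.1% ± 3.31 (SD, n = 6). The share of Syt4 went from 2.58% ± 0.727 to 8.76% ± 4.38 and that of Syt2 from 2.42% ± 0.330 to 1.31% ± 0.518. The ranges of these 4 shares did not overlap between the groups. A share rises when other members fall, so the share of Syt11 is no sign of a change in Syt11. The family sum per length was 489 ± 50.7 CPM per kilobase in controls and 384 ± 28.2 in Isl1CKO (SD, n = 6). These shares are a description and were not tested.

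**Figure D4:**
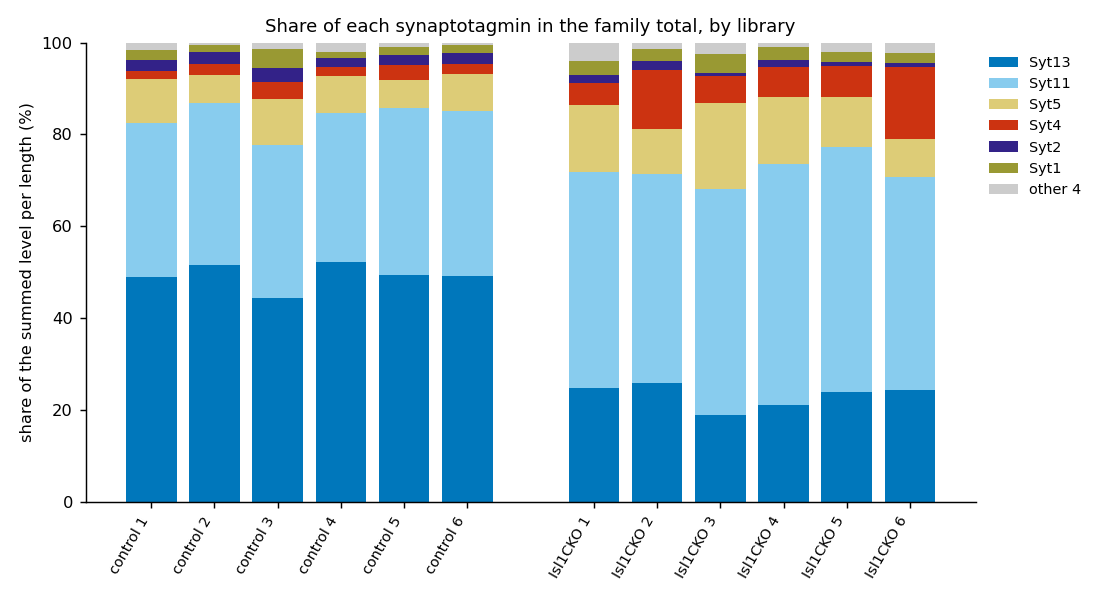
Share in percent of each synaptotagmin in the summed level per length (CPM per kilobase of exon) of the 10 with a row, as 1 stacked bar per library, controls at the left. Syt13 takes 44.4% to 52.3% of the total in controls and 18.8% to 25.9% in Isl1CKO, and Syt4 is widest in Isl1CKO 2 and 6.

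Sytl proteins bind Rab27 and other Rabs through their N-terminus and carry C2 domains, and Sytl4, also called granuphilin, docks insulin granules and other dense-core vesicles. Sytl4 (ENSMUSG00000031255, chromosome X, 133936385 to 133981812, minus strand) had at most 3 counts in any control. In Isl1CKO it lay at 35.9, 65.2 and 180 CPM, the highest library being Isl1CKO 5. Against the floor of 3 counts per control library, at 0.234 CPM on average, its mean level was higher by at least 341.5-fold, with 5.36e-08 as the adjusted p of edgeR. The call held under all 21 alternatives. Sytl4 entered the test through the Isl1CKO libraries alone, so this p and these calls add no support beyond the levels themselves. The other members of the family stayed low. Sytl2 lay at 2.20 to 6.73 CPM in controls and 3.01 to 14.7 CPM in Isl1CKO, Sytl3 at 0.159 to 3.18 and 0.0747 to 1.86 CPM, and neither passed the test. Sytl1 did not exceed 9 counts and Rab27a did not exceed 18 counts in any library, and they were not tested. Rab27b, from the Rab family that Sytl proteins bind, lay at 0.659 to 8.14 CPM in controls and 0.149 to 12.7 CPM in Isl1CKO (edgeR adjusted p = 0.719).

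Of the 6 SNARE and complexin genes 1 passed the test, or 16.7%, where 10.2% of all tested genes did. Cplx1 (ENSMUSG00000033615, chromosome 5, 108518554 to 108550024, minus strand), a complexin, which binds the assembled SNARE complex, fell. It lay at 139, 158 and 191 CPM in controls and at 70.9, 110 and 129 CPM in Isl1CKO. The groups did not overlap, although the highest Isl1CKO library and the lowest control lay close. The log2 fold change was -0.61 (SE 0.13, edgeR adjusted p = 0.00759), a 1.53-fold lower level. Without the 3 libraries that held Xist and Y-linked transcripts it was -0.51 and the call was lost (edgeR adjusted p = 0.0523). Cplx2 lay at 98.0, 116 and 166 CPM and at 61.3, 110 and 129 CPM, with overlap, and had a log2 fold change of -0.25 (SE 0.18, edgeR adjusted p = 0.440).

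The 3 core SNAREs did not pass the threshold. Snap25, the plasma membrane SNARE with a pair of helices in the complex, had medians of 625 CPM in controls (range 563 to 742) and 605 CPM in Isl1CKO (range 472 to 836). Its log2 fold change was 0.02 (SE 0.13, edgeR adjusted p = 0.944), with an interval from -0.26 to 0.31. Its sign changed in several alternatives. Vamp2, the vesicle SNARE, had medians of 296 CPM (range 257 to 326) and 220 CPM (range 204 to 297), with a log2 fold change of -0.31 (SE 0.10, unadjusted p = 0.00578, edgeR adjusted p = 0.0544). Vamp2 passed the threshold under 8 of the 21 alternatives, among them the DESeq2 Wald test (adjusted p = 0.0275), limma-voom (adjusted p = 0.0434) and the replicate number as a block (edgeR adjusted p = 0.0287). Without the 3 libraries that held Xist and Y-linked transcripts its log2 fold change was -0.19 (edgeR adjusted p = 0.452). Stx1a, the syntaxin of the complex, lay at 73.3 to 102 CPM and 74.0 to 104 CPM, with a log2 fold change of 0.09 (interval -0.16 to 0.34). Vamp1, the form of brainstem and motor neurons, was at or under 7.21 CPM in every library.

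Of the 9 vesicle protein genes 1 passed, or 11.1%, near the 10.2% of all tested genes. Sv2c (ENSMUSG00000051111, chromosome 13, 95954594 to 96132577, minus strand), a transporter-like vesicle glycoprotein, fell from 41.0, 51.3 and 63.8 CPM to 12.9, 24.7 and 49.7 CPM. The groups overlapped through Isl1CKO 1, the highest of its group. The log2 fold change was -0.92 (SE 0.25, edgeR adjusted p = 0.0321). This call was lost under 9 of the 21 alternatives: without controls 1, 2, 3 or 6, without Isl1CKO 2, 5 or 6, without the 3 libraries that held Xist and Y-linked transcripts (log2 fold change -0.79, adjusted p = 0.260), and with macrophage and glial markers as covariates (log2 fold change -0.89, adjusted p = 0.172). Its relatives Sv2a and Sv2b had log2 fold changes of -0.28 and 0.48, not past the threshold. The share of Sv2b in the summed level per length of the 3 genes was 13.3% to 31.3% in controls and 32.1% to 42.2% in Isl1CKO, without overlap. This share also rises when Sv2c falls. The level of Sv2b itself overlapped, at 24.4 to 64.2 CPM in controls and 42.4 to 75.4 CPM in Isl1CKO.

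The synapsins, which tether vesicles to each other and to the cytoskeleton, did not pass. Syn1 had medians of 155 CPM in controls (range 117 to 170) and 161 CPM in Isl1CKO (range 102 to 193), with a log2 fold change of 0.08 (interval -0.24 to 0.39, edgeR adjusted p = 0.795). Its sign changed in 2 alternatives. Syn3, a synapsin of developing neurons, had medians of 7.92 and 13.99 CPM and a log2 fold change of 0.63 (unadjusted p = 0.0465, edgeR adjusted p = 0.205). Its exons overlap Timp3 on the opposite strand over 1733 bases. Snap91, the clathrin adaptor AP180, had medians of 150 CPM (range 113 to 164) and 125 CPM (range 111 to 135), with a log2 fold change of -0.19 (SE 0.10, edgeR adjusted p = 0.280). The log2 fold changes of Syp, Sypl and Syn2 were -0.32, 0.30 and 0.08, and their edgeR adjusted p ran from 0.330 to 0.839.

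Active zone genes build the release site, with RIMs linking vesicles to calcium channels and Munc13 proteins priming vesicles. None of the 6 was called in edgeR, where 2 had an unadjusted p under 0.05. With 10.2% of all tested genes called, 0 of 6 does not set this list apart. In DESeq2 1 was called and 2 had such a p, and in limma-voom 0 were called and 1 had such a p. Of the 6 log2 fold changes 5 were negative, and all lay between -0.51 and 0.32. The median of all tested genes was 0.004, and a shift of these 6 genes together was not tested. Unc13b, a Munc13 gene, lay at 61.3, 72.3 and 84.0 CPM in controls and 30.0, 47.2 and 72.6 CPM in Isl1CKO. Its log2 fold change was -0.51 (SE 0.18, unadjusted p = 0.0128, edgeR adjusted p = 0.0919). It passed in the DESeq2 Wald test (adjusted p = 0.0454), without Isl1CKO 5 (edgeR adjusted p = 0.0376) and without the 3 libraries that held Xist and Y-linked transcripts (edgeR adjusted p = 0.0195). Rims2 lay at 63.2, 89.0 and 107.6 CPM and at 51.7, 72.6 and 80.2 CPM, and its log2 fold change was -0.33 (SE 0.13, unadjusted p = 0.0276, edgeR adjusted p = 0.150). Bsn and Pclo, the giant scaffolds bassoon and piccolo, and Unc13a had log2 fold changes of -0.43, -0.48 and -0.34, with overlapping groups.

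Rab3 proteins sit on vesicles in their active form and recruit RIM. Rab3b (ENSMUSG00000003411, chromosome 4, 108879063 to 108943324, plus strand) fell from 41.3, 47.5 and 63.6 CPM to 16.3, 21.1 and 34.2 CPM, with no overlap. Its log2 fold change was -1.06 (SE 0.20, edgeR adjusted p = 0.00289), and the call held under all 21 alternatives. Its exons overlap 8030443G20Rik on the opposite strand over 317 bases. The more abundant Rab3a lay at 264, 326 and 383 CPM and at 258, 285 and 360.5 CPM, with a log2 fold change of -0.14 (interval -0.37 to 0.08, edgeR adjusted p = 0.427). Rab3c had one of -0.12 (edgeR adjusted p = 0.627). Rab3b held 8.67% ± 1.38 of the summed level per length of the 3 Rab3 genes in controls and 4.71% ± 1.11 in Isl1CKO, without overlap. Rab3a held 87.8% ± 1.84 and 91.6% ± 1.17 (SD, n = 6). The Rab3a share overlapped, at 85.8% to 90.4% in controls and 89.6% to 92.9% in Isl1CKO. This share also rises when Rab3b falls.

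Vesicular transporters decide what a vesicle contains. Slc17a6 (ENSMUSG00000030500, chromosome 7, 51622006 to 51671119, plus strand), which encodes the glutamate transporter VGLUT2, rose. It lay at 263, 359 and 474 CPM in controls and at 606, 678 and 696 CPM in Isl1CKO, where the 6 libraries lay close together and all above the controls. The log2 fold change was 0.87 (SE 0.11, edgeR adjusted p = 1.14e-04), a 1.83-fold higher level, and it ran from 0.79 to 0.98 over the 21 alternatives, all past the threshold. Slc17a7, encoding VGLUT1, lay at 2.16 to 8.22 CPM and 3.88 to 12.2 CPM (log2 fold change 0.55, edgeR adjusted p = 0.450). Slc17a8, encoding VGLUT3, did not exceed 4 counts in any library. Slc17a6 therefore made up 98.6% ± 0.787 of the summed level per length of the 3 VGLUT genes in controls and 99.0% ± 0.473 in Isl1CKO (SD, n = 6).

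Slc18a3, encoding the vesicular acetylcholine transporter, reached 15 counts in 1 control library and no more than 2 counts in any Isl1CKO library. Of the genes for synthesis, Chat, for acetylcholine, did not exceed 4 counts, and Gad1 and Gad2, for GABA, did not exceed 5 and 2 counts. Slc5a7, the choline transporter, lay above the floor, at 3.07, 9.02 and 19.6 CPM in controls and 13.5, 26.0 and 38.96 CPM in Isl1CKO. Its log2 fold change was 1.35 (edgeR adjusted p = 0.0386), and the call was lost in 13 of the 21 alternatives, where adjusted p reached 0.123.

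The sequence before the start site is shown for the member with the largest rise, Sytl4, for the VGLUT2 gene Slc17a6, and for 2 genes that fell, Rab3b and Syt2. Of the 44 members 34, and of the 8 called members 6, had an entry in the RefSeq promoter table on GRCm38.p6; Syt13 and Syt4 had none. Where a gene had several start sites, the one nearest to the annotated gene start was taken. Each run is the 250 bases before it, 5′ to 3′, at chrX:133981813-133982062 on the minus strand for Sytl4, and on the plus strand at chr7:51621580-51621829 for Slc17a6, chr4:108878820-108879069 for Rab3b and chr1:134646362-134646611 for Syt2. Capitals mark TAAT on either strand, the core bound by many homeodomain proteins, a class that includes ISL1.
Sytl4: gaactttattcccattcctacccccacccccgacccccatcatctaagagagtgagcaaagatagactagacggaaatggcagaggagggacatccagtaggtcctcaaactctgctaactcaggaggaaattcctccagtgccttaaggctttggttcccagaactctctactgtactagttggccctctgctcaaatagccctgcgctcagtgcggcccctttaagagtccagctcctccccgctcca
Slc17a6: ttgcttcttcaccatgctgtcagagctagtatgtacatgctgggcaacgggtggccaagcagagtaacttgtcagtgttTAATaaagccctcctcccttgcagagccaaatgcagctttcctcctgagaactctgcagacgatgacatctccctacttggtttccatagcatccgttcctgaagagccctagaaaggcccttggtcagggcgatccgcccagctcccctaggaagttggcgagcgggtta
Rab3b: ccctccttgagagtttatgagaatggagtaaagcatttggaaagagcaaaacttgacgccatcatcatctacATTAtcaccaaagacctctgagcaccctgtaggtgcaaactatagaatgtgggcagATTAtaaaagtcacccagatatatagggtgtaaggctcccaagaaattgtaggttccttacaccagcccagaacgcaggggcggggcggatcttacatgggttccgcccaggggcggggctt
Syt2: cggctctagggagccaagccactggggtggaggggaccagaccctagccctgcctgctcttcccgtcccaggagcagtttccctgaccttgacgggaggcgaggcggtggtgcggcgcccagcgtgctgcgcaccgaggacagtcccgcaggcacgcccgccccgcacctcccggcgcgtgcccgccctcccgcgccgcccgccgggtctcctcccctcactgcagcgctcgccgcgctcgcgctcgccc
TAAT occurs 1 time in the Slc17a6 window and 2 times in that of Rab3b, and has 0 matches in those of Sytl4 and Syt2. It was present in 3 of the 6 windows of called members, in 16 of the 34 windows of members, and in 54.9% of all 32851 windows of this length in the table. The E-boxes CAGCTG and CAGATG, bound by proteins of the NEUROD1 class, were also searched on both strands. They have 0 matches in the 4 windows shown. CAGCTG stands in 8 of the 34 member windows, among them that of the called gene Cplx1, and in 13% of all windows. CAGATG stands in 2 of the 34 and in 14.4% of all windows. Bases differ between the windows, with 76.0% G and C in that of Syt2 and 48.8% in that of Rab3b. A match is a description of these letters, and this window holds no distal element.

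The rest of the pathway was read from a list of 131 further genes, of which 126 had a row and 108 were tested. Of these 18 passed the threshold, 8 lower and 10 higher in Isl1CKO, or 16.7% against 10.2% of all tested genes, and their median log2 fold change was 0.06. The count was 9 without the 3 libraries that held Xist and Y-linked transcripts and 10 with macrophage and glial markers as covariates. This list and its sub-lists were also chosen with earlier results of these data known, so their shares are descriptions and support no excess of calls. Among other SNARE regulators 4 of 29 were called, or 13.8%, near the 10.2% of all tested genes. Sncg, gamma-synuclein, fell from a median of 1970 to 670 CPM without overlap (log2 fold change -1.36, edgeR adjusted p = 6.80e-04). Stx2, a syntaxin of the plasma membrane, fell by 0.58 on the log2 scale. This call was lost under the same pair of settings (adjusted p = 0.131 and 0.0866) and without control 6 (adjusted p = 0.0503). Over all alternatives the log2 fold change of Stx2 ran from -0.64 to -0.50.

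Among other vesicle proteins and Rab partners 5 of 20 were called, or 25%, all higher. Of all tested genes 10.2% were called in either direction and 5.01% higher. Synpr, synaptoporin, a relative of synaptophysin, rose from 391, 508 and 665 CPM to 866, 932 and 1231 CPM (log2 fold change 0.92, edgeR adjusted p = 9.05e-05). Slc18a2, the vesicular monoamine transporter, had medians of 39.5 and 84.4 CPM (log2 fold change 1.13, edgeR adjusted p = 0.0165). Its call was lost with the marker covariates (adjusted p = 0.0721) and without the 3 libraries that held Xist and Y-linked transcripts (adjusted p = 0.0767). Over all alternatives the log2 fold change of Slc18a2 ran from 0.99 to 1.27. Syngr2 was low, at 0 to 2.16 CPM in controls and 2.03 to 8.07 CPM in Isl1CKO (log2 fold change 2.62, edgeR adjusted p = 0.0412). It was called in 8 of 20 alternatives. With a control median of 0.49 CPM, Syngr2 passed the filter on low counts through the Isl1CKO libraries. Its call is thus part of how it entered the test, and this p adds no support beyond the levels. Syngr2 is counted among the 5 called genes of this list.

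Vesicle recycling genes, which retrieve membrane after release, had 3 of 25 called, or 12%, and all 3 were lower. Of all tested genes 10.2% were called in either direction and 5.19% lower. Dnm3, a dynamin that cuts vesicles from the membrane, fell from a median of 315 to 163 CPM (log2 fold change -1.11, edgeR adjusted p = 8.24e-05). Epn2, an epsin that bends membrane, fell from 117 to 66.0 CPM (log2 fold change -0.93, edgeR adjusted p = 1.17e-04), and Sh3gl2, endophilin A1, from 67.7 to 51.0 CPM (log2 fold change -0.39, edgeR adjusted p = 0.0188). The groups did not overlap for these 3 genes, and the call of Sh3gl2 was lost without the 3 libraries that held Xist and Y-linked transcripts (adjusted p = 0.165) and with the marker covariates (adjusted p = 0.0840). Over all alternatives the log2 fold change of Sh3gl2 ran from -0.43 to -0.32. Clathrin and AP-2 adaptor genes of the list were not called.

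Of the remaining lists, other active zone genes had 2 of 15 called, or 13.3%, Apba2 and Cask, both higher. Of all tested genes 10.2% were called in either direction and 5.01% higher. Apba2, an adaptor of Munc18, had a log2 fold change of 0.58 (adjusted p = 0.00281 by edgeR). Cask, a scaffold kinase, had one of 0.38 (adjusted p = 0.00849 by edgeR). It did not pass once the 3 libraries that held Xist and Y-linked transcripts were left out (adjusted p = 0.116). Over all alternatives the log2 fold change of Cask ran from 0.29 to 0.48. Other C2 domain proteins had 1 of 8, or 12.5%, Esyt1, a tether between endoplasmic reticulum and plasma membrane, whose log2 fold change was -0.64 (edgeR adjusted p = 0.0191). That call was lost without the same 3 libraries (adjusted p = 0.194) and with the marker covariates (adjusted p = 0.115). Over all alternatives the log2 fold change of Esyt1 ran from -0.77 to -0.57. Transmitter synthesis and uptake genes had 3 of 11, or 27.3%. Beside Slc5a7, Slc1a2, a glutamate uptake transporter, was higher, with medians of 16.7 and 45.0 CPM (log2 fold change 1.36, edgeR adjusted p = 0.00264).

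**Figure D5:**
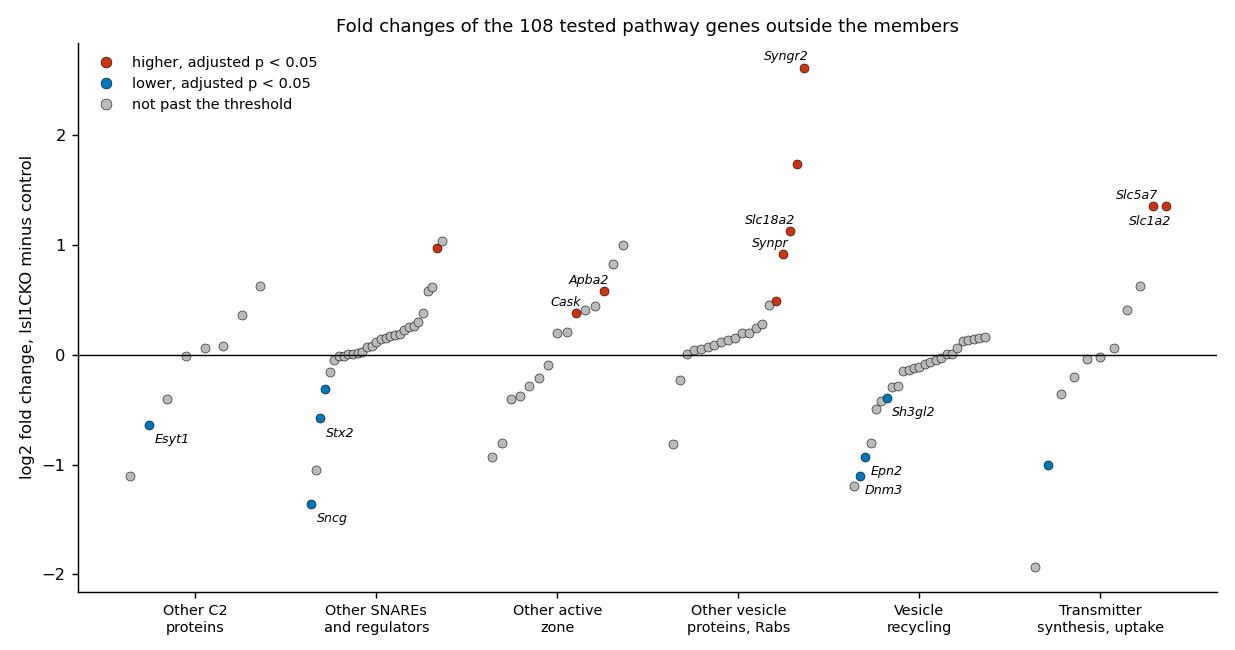
Log2 fold change of Isl1CKO over control (vertical axis) for the 108 tested pathway genes that are not members, 1 point per gene, sorted within 6 sub-lists, with the called genes that the text names labelled, and coloured where the edgeR adjusted p is under 0.05. The 5 called of 20 vesicle protein and Rab partner genes lie above 0 and the 3 called of 25 recycling genes below 0. Of all tested genes 10.2% were called, 5.01% higher and 5.19% lower.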

How the data were processed

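The authors deposited 1 table of whole-number read counts per Ensembl gene, not normalized, for the 12 libraries. The submitters' processing notes name cutadapt 1.18, Bowtie 1.2.2, STAR 2.7.0c, featureCounts and the build GRCm38.p6, without role or order; annotation, strand setting and filters are not given in the sources used here. Column names carry the group and replicate number, which gave each column its sample; 0 columns stayed unmapped. Symbols, coordinates and exon lengths came from GENCODE M21 on GRCm38, which located 25627 of 25674 identifiers.

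Genes were kept by filterByExpr (minimum count 10) and scaled by TMM. All 14813 were fitted with edgeR 4.0.16 (R 4.3.3), robust quasi-likelihood F-test, genotype without covariate, Benjamini-Hochberg adjustment, threshold 0.05. The SE is the absolute log2 fold change divided by the square root of F; intervals are 95% with 10 degrees of freedom, approximate. No pair of libraries was a duplicate, the lowest mean chi-square per gene being 20.5.

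Members and lists were chosen with earlier results of these data known. Named were all called members, those with an unadjusted p under 0.05, the 6 most abundant others and the transporters; of each other list, up to 3 called genes of smallest p and partner enzymes. Genes named beyond these are given for context. Some genes that this rule names are not reported here. Alternatives were DESeq2 1.42.0 size factors and Wald test, upper quartile scaling, limma 3.58.1 voom with sample weights, no filter, a minimum mean of 5 CPM, the replicate block, marker covariates, and libraries left out singly or as the 3 with Xist and Y-linked transcripts.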

Additional observations from a re-analysis of the deposited data

Results flagged for a closer look

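Dixon's criterion at 95% picked out 1 library of its group for 3 of the 40 pairings of a named member with a group; about 2 are expected by chance. Sytl4 reached 180 CPM in Isl1CKO 5, against 35.9 to 75.4 CPM in the remaining Isl1CKO libraries. Rims2 was at 51.7 CPM in Isl1CKO 5, under the 69.5 to 80.2 CPM of the others. Rab3a was at 360.5 CPM in Isl1CKO 3, above the 258 to 295 CPM of the others. Isl1CKO 3 and 5 are among the libraries that held both Xist and Y-linked transcripts.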

How the results depend on the processing

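Over the 35 genes that the naming rule gives and up to 21 alternatives each, 661 values kept their direction and their side of the threshold, 54 fell short of it, 11 newly passed it and 8 changed sign. The fit called 1511 genes; a separate fit with marker covariates called 919, and one without the 3 libraries that held Xist and Y-linked transcripts called 767. How many of the genes are shared was not counted. Of pathway genes 18 were called, and 10 and 9 under these settings. Leaving out 1 library at a time, 1178 to 1517 genes were called. Member calls lay within 1.5 times of 8 throughout. The sign changed for Snap25 with limma-voom (-0.052) and with the replicate block (-0.002), and for Syn1 with marker covariates (-0.11). With 1 library left out, Snap25 ran from -0.072 to 0.095 and Syn1 from -0.001 to 0.17 on the log2 scale. The cause was not tested. With the replicate number as a block 1450 genes were called; the 8 member calls remained and Vamp2 was added. The numbers share no stated source, and deviations of same-numbered libraries correlated between -0.056 and 0.152. Only the libraries numbered 5 were each other's best match. No scaling moved the median log2 fold change of all genes by over 0.1. At this depth, members at a few counts cannot be compared between groups.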
